A study of Mus musculus with 6 samples.

Results

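Small nuclear and small nucleolar RNAs were examined in the liver of Mdr2 knockout mice given vehicle or lycorine. The members were the rows of the deposited table that GENCODE mouse M21 annotates as snRNA, snoRNA or scaRNA and whose mean over the 6 libraries was at least 1 TPM, a unit of transcript share scaled for transcript length and library total. That rule kept 53 of the 1888 annotated rows, and the table has 58601 rows in all. The members were 12 snRNAs, 7 box C/D snoRNAs, 15 box H/ACA snoRNAs, 16 other snoRNAs with predicted-gene names and 3 scaRNAs. Because a mean over all libraries chose them, their levels are given as a description.

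The vehicle group held 3 liver libraries and the lycorine group held 3. Every mouse was labelled as carrying the Mdr2 deletion (Mdr2-/- in the titles, Mdr2-HKO in the growth protocol) and was 8 weeks old when treatment for 2 weeks began. Mdr2 is the older name of Abcb4, the canalicular transporter of phosphatidylcholine, and lycorine is an alkaloid of Amaryllidaceae plants. The design asks by what route lycorine acts in intrahepatic cholestasis. Whether the deletion covers the whole body or hepatocytes alone, and the dose and sex, could not be read from the labels, and no wild-type library was analysed. The labels do not state that each library is a separate mouse, so each p-value reflects variation among the 3 libraries of a group, some of which may be technical.

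Small nuclear RNAs form the RNA core of the spliceosome. The major spliceosome uses U1, U2, U4, U5 and U6, and the minor spliceosome, which removes a rare class of introns, uses U11 and U12 in place of U1 and U2. Small nucleolar RNAs guide chemical modification of ribosomal RNA: box C/D RNAs direct methylation of the ribose and box H/ACA RNAs direct pseudouridylation, and a few of each class, such as U3, U8 and Snora73, take part in cutting the ribosomal RNA precursor. Small Cajal body RNAs (scaRNAs) guide the same modifications on the snRNAs. Most snoRNAs of mammals are released from introns of host genes, many of which encode ribosomal proteins, whereas U1, U11, U12 and U8 have their own promoters. Mature forms of these RNAs carry no poly(A) tail.

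The sequences of 9 members are shown because the results below turn on them. They are the transcript sequences of GENCODE M21 on GRCm38, written 5′ to 3′ with T for U. The first pair are the minor spliceosome RNAs, with capitals on a match to AATTTNT, the core of the site bound by the Sm protein ring.
Rnu11: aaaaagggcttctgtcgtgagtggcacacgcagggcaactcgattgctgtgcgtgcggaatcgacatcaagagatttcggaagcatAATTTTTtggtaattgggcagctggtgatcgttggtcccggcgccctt
Rnu12: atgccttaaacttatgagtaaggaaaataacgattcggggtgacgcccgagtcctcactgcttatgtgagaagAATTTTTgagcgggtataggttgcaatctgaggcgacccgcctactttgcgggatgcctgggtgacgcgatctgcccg

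The next 4 are box C/D members that stood out by level or by group. Beside them stands Gm23547, of the other snoRNAs, whose groups did not overlap. Capitals mark the first match to TGANGA (the C box core) and the last match to CTGA (the D box).
Snord118: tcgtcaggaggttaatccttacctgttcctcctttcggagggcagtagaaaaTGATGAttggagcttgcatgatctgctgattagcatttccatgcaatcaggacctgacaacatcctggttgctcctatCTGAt
Snord22: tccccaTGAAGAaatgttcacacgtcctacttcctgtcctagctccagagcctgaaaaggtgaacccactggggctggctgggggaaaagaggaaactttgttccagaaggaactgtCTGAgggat
Snord15b: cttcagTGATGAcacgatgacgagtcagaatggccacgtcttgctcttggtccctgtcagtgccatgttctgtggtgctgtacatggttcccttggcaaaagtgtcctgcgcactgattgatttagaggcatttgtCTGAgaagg
Snord23: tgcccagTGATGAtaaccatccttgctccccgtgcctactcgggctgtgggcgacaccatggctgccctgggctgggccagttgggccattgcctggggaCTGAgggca
Gm23547: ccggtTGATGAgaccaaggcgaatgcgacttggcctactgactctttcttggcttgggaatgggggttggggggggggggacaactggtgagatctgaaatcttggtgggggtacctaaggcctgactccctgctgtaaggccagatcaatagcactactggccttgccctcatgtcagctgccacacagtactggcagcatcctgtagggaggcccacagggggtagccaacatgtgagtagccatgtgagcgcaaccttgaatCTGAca

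The last pair are H/ACA members that were highest in 1 vehicle library, with capitals on the last ACA before the 3′ end.
Snora73b: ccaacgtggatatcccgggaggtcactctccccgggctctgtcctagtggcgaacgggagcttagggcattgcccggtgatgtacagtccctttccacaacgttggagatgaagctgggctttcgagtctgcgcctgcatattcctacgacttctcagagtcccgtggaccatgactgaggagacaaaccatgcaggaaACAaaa
Snora57: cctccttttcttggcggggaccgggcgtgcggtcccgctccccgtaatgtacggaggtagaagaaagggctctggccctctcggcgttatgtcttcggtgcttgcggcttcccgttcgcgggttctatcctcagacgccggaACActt

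These motifs were searched on the RNA strand only, and a match describes letters, not a working site. TGANGA anywhere with CTGA in the last 20 bases was found in 7 of 7 box C/D members, in 55 of all 70 box C/D rows of the table (78.6%) and in 384 of 6390 other annotated genes of 107 to 414 bases (6.01%). ACA in the last 20 bases was found in 14 of 15 box H/ACA members and in 13 of 16 other snoRNA members, against 28.3% of the same other genes. TGANGA with CTGA was found in 3 of 16 other snoRNA members. AATTTNT was found in 8 of 12 snRNA members, in 24.7% of all snRNA rows and in 8.72% of the other genes. CTGA can share letters with TGANGA, and ACA can overlap CTGA.

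The libraries were unequal in makeup before any comparison. Protein-coding nuclear genes were 51.5% of the total of vehicle 3, against 63.7% to 78.1% elsewhere. The hepatocyte marker albumin (Alb) was between 5039 TPM, in vehicle 3, and 19785 TPM, and Abcb4 transcripts were between 8.32 and 43.5 TPM, a level that does not show which part of the gene remains. All 5 Kupffer cell markers were lower in lycorine, with log2 differences from -1.74 to -0.92 and a summed level of 81.9 to 148 TPM in vehicle and 18.8 to 69.1 TPM in lycorine, and 4 of them did not overlap between groups, beside 1.01% of all rows tested that were lower without overlap. No marker of the 7 cell type lists passed the limma test used below, 6 of the 33 tested markers had an unadjusted p under 0.05 (3.44% of all rows did), and the part of cell makeup in the results below was not tested. In bulk tissue, fewer cells of a type and less RNA per cell cannot be told apart. Depth is unknown, because TPM keeps no record of it.

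Very few annotated small RNAs had any value. Of the 1888 annotated rows, 1824 were listed at 0 in all 6 libraries, 64 were above 0 in at least 1, and 11 of those fell below the rule. By class, 16 of 789 snRNAs (2.03%), 7 of 70 box C/D snoRNAs, 18 of 37 box H/ACA snoRNAs (48.6%), 18 of 958 other snoRNAs (1.88%) and 5 of 34 scaRNAs (14.7%) were above 0. Rows listed at 0 included Rnu7, the RNA that matures histone mRNA ends, and Scarna17, Scarna8 and Scarna9, so a 0 here shows what the table lists and not that the RNA was absent from liver. The 3 members just inside the threshold were Gm25767, Gm24525 and Snora62, with means of 1.21, 1.23 and 1.43 TPM. The 3 rows just outside were Snora73a, Gm25395 and Gm24119, with means of 0.975, 0.895 and 0.84 TPM.

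Rows with values were longer than the rest. None of the 344 annotated rows of at most 100 bases was above 0, and the shortest row above 0 had 107 bases. From 101 to 150 bases 40 of 1343 rows (2.98%) were above 0, and from 201 to 500 bases 12 of 25 (48.0%) were. Other annotated genes followed the same order, with 1 of 1173 (0.0853%), 22 of 585 (3.76%) and 1121 of 7777 (14.4%) above 0 in these 3 ranges. Box C/D RNAs, the shortest class, followed that order closely: the median length was 78 bases over all rows and 145 over the members, and all 59 Snord genes of at most 106 bases were at 0. Box H/ACA rows, with a median of 132 bases, had members of nearly the same median length, 134. How extraction, library selection and the length scaling of TPM act on short RNA was not tested, and levels are not compared between genes of different length.

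**Figure D1:**
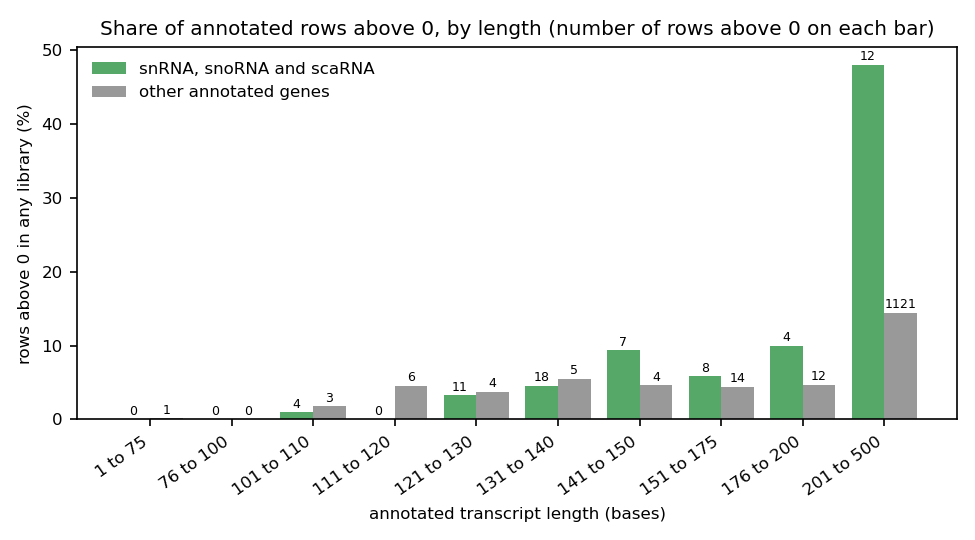
Bars give the percent of annotated rows above 0 in any library (vertical axis) by annotated transcript length in bases (horizontal axis), for the small nuclear and nucleolar RNAs (green) and all other annotated genes (grey), with the number of rows above 0 on each bar. No small RNA row of at most 100 bases has a value, and 48.0% of those from 201 to 500 bases do.

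Most members appeared in some libraries and not in others. Only 9 of 53 (17.0%) were above 0 in all 6 libraries and 24 (45.3%) were above 0 in 1 library, against 88.4% and 4.32% of all 13854 rows tested. Other tested rows of 107 to 200 bases were closer to the members, with 21.1% of 38 rows in all 6 libraries and 31.6% in 1. In 25 members a whole group was at 0, the lycorine group in 18 and the vehicle group in 7. Of those 18, 12 had a value in vehicle 3 only. The rule keeps such members through their other group, and no share over all rows was taken, so these counts are a description. Vehicle 3 stood out: 33 members had a value there, 12 of them nowhere else, and 20 members were highest in it. The other libraries had values for 22 and 19 members in vehicle and 14, 20 and 24 in lycorine. Applied without vehicle 3, the rule gave 42 members, and without vehicle 3 and lycorine 3 it gave 35.

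**Figure D2:**
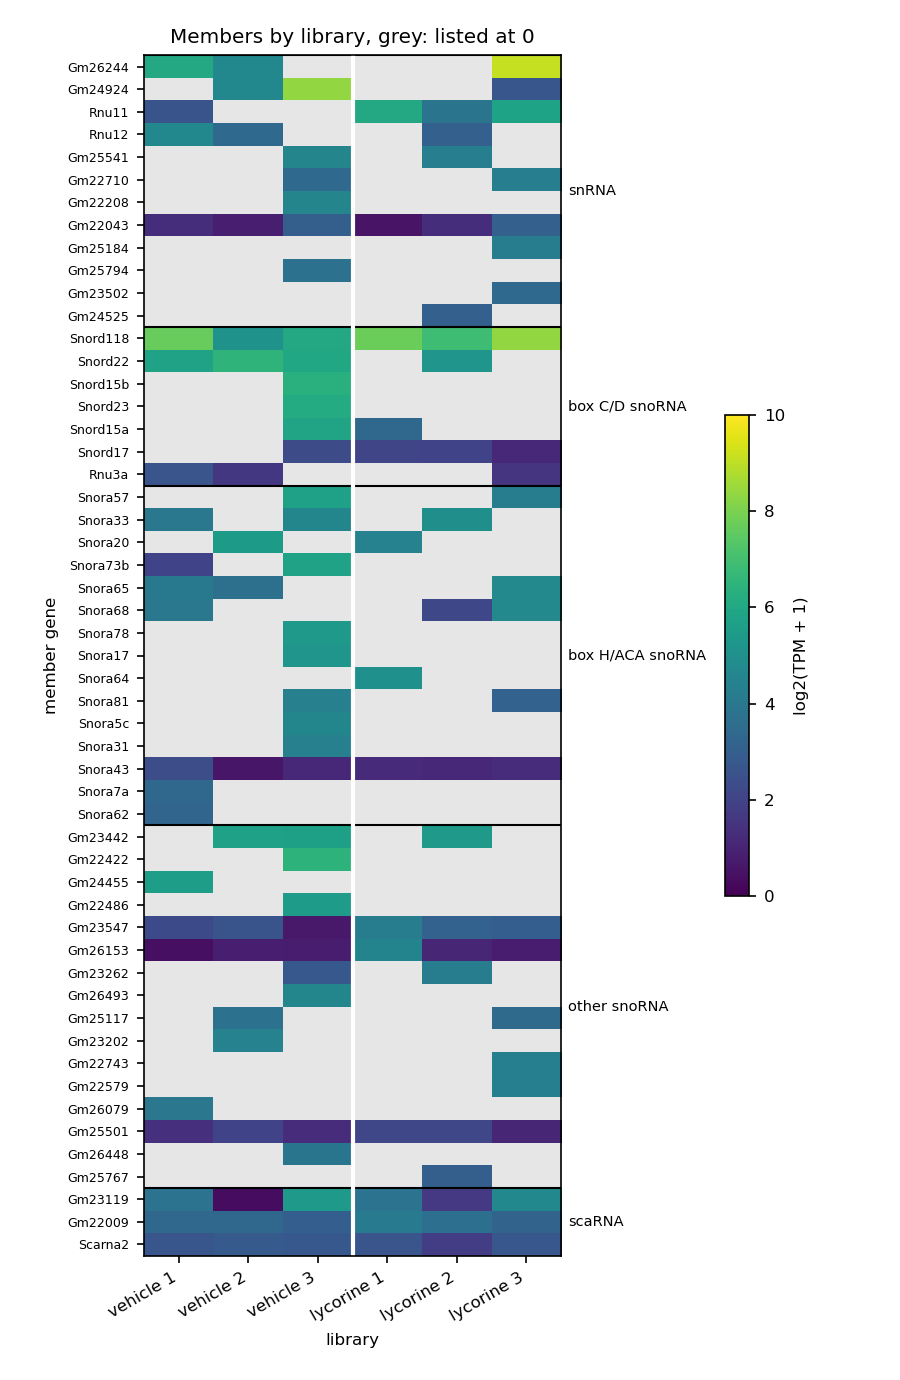
Each row is 1 of the 53 members, grouped by class, and each column 1 library, with the colour giving log2(TPM + 1) and grey a value listed at 0. The 9 members above 0 in every library form unbroken rows, and vehicle 3 has values for 33 members.

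Summed over all members, the level was 524, 347 and 1292 TPM in vehicle 1 to 3 against 424, 333 and 1172 TPM in lycorine 1 to 3. The groups overlapped, and vehicle 3 and lycorine 3 each lay above the other 4 libraries. At most 0.129% of a library lay in these RNAs. In vehicle 3 the excess was spread over the classes, with 405 TPM of snRNA, 336 of box C/D, 268 of box H/ACA and 228 of other snoRNA. In lycorine 3 most of it lay in the snRNAs, at 663 TPM, while box H/ACA and other snoRNAs were at 77.4 and 56.5 TPM. The scaRNA sums were between 15.4 and 54.1 TPM over the 6 libraries, and these sums overlapped between groups in every class.

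**Figure D3:**
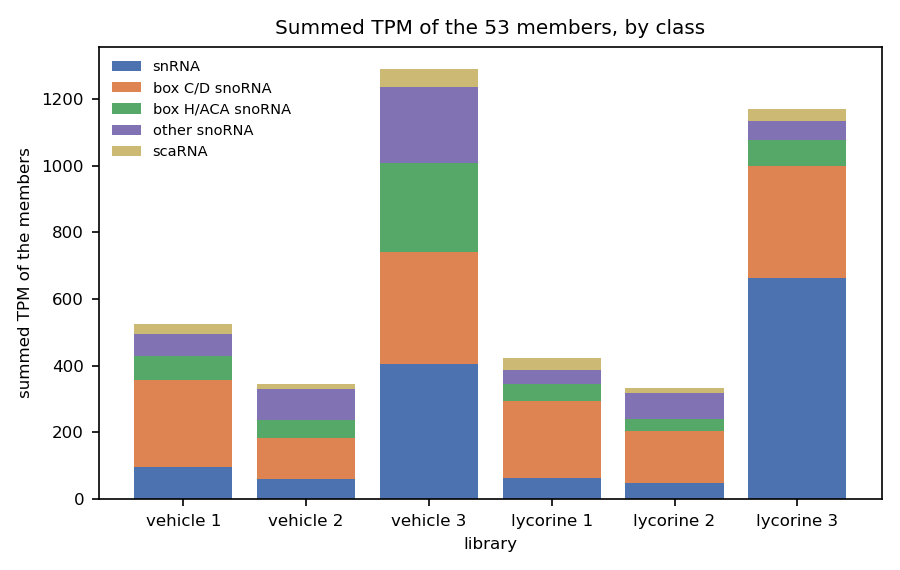
Stacked bars give the summed TPM of the members of each class (vertical axis, from 0) in each of the 6 libraries (horizontal axis). The bars of vehicle 3 and lycorine 3, at 1292 and 1172 TPM, are the highest, and the next is vehicle 1 at 524 TPM.

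Lycorine was compared with vehicle by limma on log2(TPM + 1) over all 13854 rows whose mean reached 1 TPM. No row passed a Benjamini-Hochberg adjusted p of 0.05 (0% of rows called), and none of the 53 members did. The smallest adjusted p among the members was 0.832. At an unadjusted limma p under 0.05 there were 476 rows (3.44%), and 3 members: Rnu11, Snord22 and Gm23547. In the same 3 members every library of 1 group lay above every library of the other, against 10.6% of all rows tested. Rnu11 and Gm23547 were higher in lycorine, as were 9.6% of all rows, and Snord22 was lower, as were 1.01%. These 3 are 5.66% of the 53 members. Groups can be apart only where every library of 1 group is above 0. Values in all 6 libraries were found for 9 of 53 members and 88.4% of all rows, so the shares are not compared. The split of all rows depended on scaling: 1330 higher and 140 lower as deposited became 459 higher and 487 lower under median-of-ratios scaling, which also moved the median log2 difference of all rows from 0.22 to 0.00. Under quantile normalization it was 557 and 390, and under scaling to protein-coding nuclear genes 621 and 278. With 3 libraries against 3, an exact permutation test of a single member cannot reach a p under 0.1.

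U11, the product of Rnu11, pairs with the 5′ splice site of minor introns. It was listed at 4.98, 0 and 0 TPM in vehicle 1 to 3 against 64.1, 13.5 and 55.1 TPM in lycorine 1 to 3. All 3 lycorine libraries lay above all 3 vehicle libraries. The log2 difference was 4.37 ± 0.84 (SE; adjusted p = 0.832), or 4.15 above the median of all tested rows. Over the 17 alternative settings the log2 difference was 3.33 to 6.62. As the groups do not overlap, leaving out a library could not change its sign, and the other filters left it at 4.37. In none of the settings did Rnu11 pass the threshold, with adjusted limma p-values of 0.364 to 1.0. The lowest came with a filter that kept Rnu11 through its lycorine libraries alone. Rnu11 lies on chromosome 4 from 132270080 to 132270213 on the minus strand, and has no near copy in M21, meaning no other transcript with at least 95% identity over at least 90% of its length. An exon of the lincRNA Gm28872 overlaps it on the other strand. Gm28872 was at 10.8 TPM in vehicle 1, the only vehicle library where Rnu11 had a value (4.98 TPM). It was listed at 0 in the other 5 libraries. Whether the counting used strand is not known from the labels or the table. How reads were shared between Rnu11 and Gm28872 was not tested. Whether the groups stay apart with both values added was not tested either.

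U12, the partner of U11 that pairs with the branch point, did not follow it. Rnu12, on chromosome 15 from 83149644 to 83149794, was listed at 24.2, 9.81 and 0 TPM under vehicle against 0, 7.39 and 0 TPM under lycorine. The groups overlapped, and the log2 difference was -1.67 ± 1.30 (SE; adjusted p = 0.832). A further pair of snRNA members are near copies of Rnu12, with 96.6% identity for Gm24525 and 96.5% for Gm23502. Gm24525 had a value of 7.39 TPM in lycorine 2 only, equal to that of Rnu12 there, and Gm23502 had 9.66 TPM in lycorine 3 only. Added over these 3 genes, the U12-type level was 24.2, 9.81 and 0 TPM under vehicle against 0, 14.8 and 9.66 TPM under lycorine, which still overlapped.

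By likeness to named genes, the members of the major spliceosome were a pair of U1-type genes and copies of U6. Gm26244 and Gm24924 each have 164 bases with 99.4% identity to Rnu1a1, and differ from each other at 2 positions. Gm26244 was listed at 65.2, 24.4 and 0 TPM under vehicle against 0, 0 and 550 TPM under lycorine. Gm24924 was listed at 0, 24.4 and 331 TPM under vehicle against 0, 0 and 5.34 TPM under lycorine. Reads that miss those 2 positions cannot be assigned to either gene, so their sum is given. Gm26244 has 18 near copies in M21 and Gm24924 has 19, so the sum of these 2 genes is not a level of U1. It was 65.2, 48.7 and 331 TPM under vehicle against 0, 0 and 555 TPM under lycorine, highest in vehicle 3 and lycorine 3 and at 0 in the other 2 lycorine libraries. Gm26244 and Gm24924 made up 47.4% of the summed level of all members in lycorine 3 and 25.6% in vehicle 3.

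Gm25794, with 96.2% identity to Rnu6 and 107 near copies in M21, had 12.7 TPM in vehicle 3 only. Gm22208, less like Rnu6 at 81.3% identity, had 22.2 TPM in vehicle 3 only. Gm22043, in an intron of Larp1b, was the 1 snRNA member above 0 in every library, at 1.51, 0.77 and 7.08 TPM under vehicle against 0.46, 1.45 and 7.27 TPM under lycorine. It was highest in vehicle 3 and lycorine 3, and its groups overlapped. The remaining members of the class had values in 1 or 2 libraries each: Gm25541 and Gm22710 in 1 of each group, and Gm25184 in lycorine 3 only. No named gene was found like Gm25541 or Gm22710, so their snRNA family was not determined.

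Among box C/D RNAs, Snord118 (U8), needed to process the precursor of large-subunit ribosomal RNA, had the highest mean and was above 0 in every library. It lies on chromosome 11 from 69073427 to 69073561 on the plus strand. It was at 204, 33.0 and 64.1 TPM under vehicle against 216, 117 and 333 TPM under lycorine. Lycorine libraries were high, but vehicle 1 lay within their range, so the groups overlapped. The log2 difference was 1.41 ± 0.69 (SE; adjusted p = 0.832), or 1.19 above the median of all rows, and without vehicle 2 it was 0.82. With Snord118 set aside, 61.0% of the members' summed TPM was left in vehicle 1 and 49.1% in lycorine 1. U3, represented by Rnu3a, which takes part in the first cuts of the ribosomal RNA precursor, was low: 5.24, 2.10 and 0 TPM under vehicle against 0, 0 and 1.88 TPM under lycorine. An exon of another M21 entry named Rnu3a overlaps this gene on the same strand.

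Snord22 (U22), known for a part in processing small-subunit ribosomal RNA, was listed at 53.2, 89.6 and 62.0 TPM under vehicle against 0, 36.4 and 0 TPM under lycorine. Every vehicle library lay above every lycorine library. The log2 difference was -4.34 ± 1.31 (SE; adjusted p = 0.832), or -4.56 from the median of all rows. Over the 17 alternative settings it was -6.54 to -1.61, the latter with array quality weights. As the groups do not overlap, leaving out a library could not change its sign. Without lycorine 2, which left only libraries at 0 in lycorine, Snord22 passed the limma test with an adjusted p of 0.0466, and over all its settings the adjusted p was between 0.0466 and 1.0. Snord22, on chromosome 19 from 8725866 to 8725991, touches an exon of its host Snhg1 on the same strand. Snhg1 was at 22.4, 9.16 and 7.14 TPM under vehicle against 17.7, 17.9 and 11.1 TPM under lycorine, with a log2 difference of 0.38 ± 0.45 (SE), so host and snoRNA pointed to opposite sides.

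The other box C/D members were mostly values of vehicle 3. Snord15b was at 79.4 TPM and Snord23 at 69.6 TPM in that library and both were listed at 0 elsewhere. Snord15a was at 56.6 TPM in vehicle 3, 9.53 TPM in lycorine 1 and 0 in the other 4 libraries. Snord15a and Snord15b both lie in Rps3, a ribosomal protein gene whose own values were 123, 75.8 and 72.3 TPM under vehicle against 140, 126 and 72.7 TPM under lycorine. Rps3 was thus not high in the library where its snoRNAs were. Snord17, in an intron of Snx5, was listed at 0, 0 and 4.06 TPM under vehicle against 3.21, 3.03 and 1.22 TPM under lycorine, which overlapped.

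**Figure D4:**
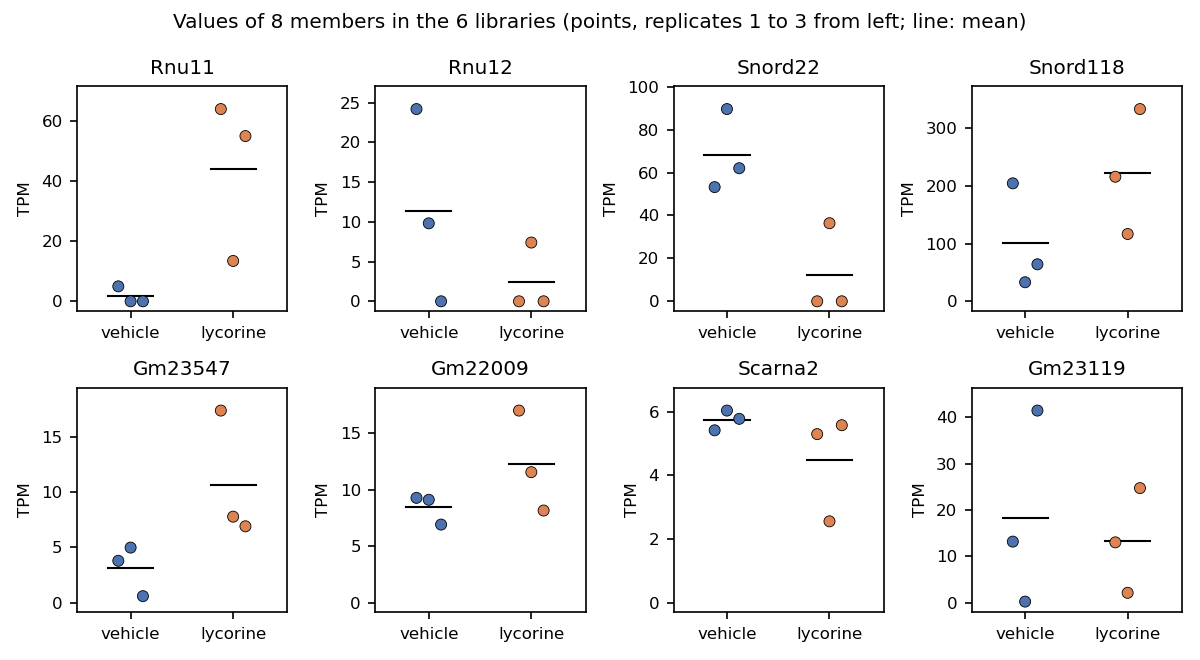
Each panel shows the TPM (vertical axis, its own scale) of 1 member in the 3 vehicle (blue) and 3 lycorine (orange) libraries, with a line at each group's mean. The groups are apart for Rnu11, Snord22 and Gm23547 and overlap for Rnu12, Snord118, Gm22009, Scarna2 and Gm23119.

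Box H/ACA members were scattered. Snora73b, which takes part in cutting the ribosomal RNA precursor, was at 3.0, 0 and 53.2 TPM in vehicle and listed at 0 in all 3 lycorine libraries. Its near copy Snora73a (98.0% identity) was at 5.85 TPM in vehicle 1 only. Snora57 had 51.4 TPM in vehicle 3, 17.7 TPM in lycorine 3 and 0 in the other 4 libraries. Snora57 thus had values only in the libraries numbered 3, and vehicle 3 alone held Snora78, Snora17, Snora5c and Snora31, at 19.3 to 41.6 TPM.

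Snora33, which touches an annotated exon of Rps12, was listed at 15.2, 0 and 23.1 TPM under vehicle against 0, 30.8 and 0 TPM under lycorine. Snora20, in an intron of the chaperonin gene Tcp1, was listed at 0, 42.3 and 0 TPM under vehicle against 20.4, 0 and 0 TPM under lycorine. Neither was higher in 1 group in every library. Snora64, which touches an exon of Rps2, had 31.2 TPM in lycorine 1 only. It was the 1 H/ACA member with values in lycorine alone, against 7 with values in vehicle alone, 4 of them in vehicle 3 only. Snora65, which touches an exon of Rpl12, was highest in lycorine 3, at 25.5 TPM, and was also above 0 in 2 vehicle libraries. Snora81, which touches an exon of Eif4a2, had values in vehicle 3 (19.7 TPM) and lycorine 3 (7.93 TPM) only. Snora7a and Snora62 had values in vehicle 1 only. Snora43 was the 1 H/ACA member above 0 in all 6 libraries, at 4.19, 0.53 and 1.24 TPM under vehicle against 1.26, 1.22 and 1.43 TPM under lycorine. An exon of another M21 entry of the same name overlaps it on the same strand, and its 1 near copy was listed at 0.

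Of the 16 other snoRNAs, Gm23547 was above 0 in every library and its groups did not overlap. It was at 3.79, 4.98 and 0.60 TPM under vehicle against 17.3, 7.77 and 6.90 TPM under lycorine. The log2 difference was 1.60 ± 0.57 (SE; adjusted p = 0.832), or 1.37 above the median of all rows, and from 1.0 to 2.04 over the 17 alternative settings. Under median-of-ratios scaling and under quantile normalization its groups overlapped. Gm23547, on chromosome 6 from 124715232 to 124715502, touches an exon of Phb2, which encodes a mitochondrial prohibitin. Phb2 was at 130, 109 and 63.7 TPM under vehicle against 180, 149 and 120 TPM under lycorine, with a log2 difference of 0.61 ± 0.35 (SE). How far reads of Phb2 enter the value of Gm23547 was not tested.

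Gm26153 was at 0.33, 0.77 and 0.74 TPM under vehicle against 21.8, 1.13 and 0.73 TPM under lycorine, a difference that rested on lycorine 1. Gm25501 was at 1.56, 3.0 and 1.40 TPM under vehicle against 3.38, 3.36 and 1.13 TPM under lycorine, which overlapped. Gm23442, in an intron of Prrc2a, was at 0, 51.2 and 49.9 TPM under vehicle against 0, 40.4 and 0 TPM under lycorine. Gm22422 and Gm22486 had values in vehicle 3 only, at 88.1 and 44.7 TPM, and Gm24455 in vehicle 1 only, at 46.8 TPM. Gm22743 and Gm22579, near copies of each other, were both at 18.9 TPM in lycorine 3 and at 0 elsewhere. The others of this class had values in 1 or 2 libraries, the highest being 23.2 TPM of Gm26493 in vehicle 3, and Gm26448, in an intron of Rpsa, had 13.8 TPM in vehicle 3 only. Of this class 10 members had a value in 1 library only.

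The 3 scaRNA members were the longest class, with a median of 343 bases, and all 3 were above 0 in every library. Scarna2, which guides modification of U2, lies on chromosome 3 from 108554338 to 108554751. It was at 5.42, 6.04 and 5.78 TPM under vehicle against 5.30, 2.56 and 5.58 TPM under lycorine. The groups overlapped, and lycorine 2 was the lowest library. The log2 difference was -0.35 ± 0.33 (SE; adjusted p = 0.832). Gm22009, in an intron of the importin gene Kpna4, was at 9.27, 9.10 and 6.91 TPM under vehicle against 17.0, 11.5 and 8.15 TPM under lycorine, with a log2 difference of 0.44 ± 0.34 (SE; adjusted p = 0.832). Its groups overlapped through lycorine 3, and Kpna4 itself had a log2 difference of 0.39. Gm23119 was at 13.2, 0.26 and 41.4 TPM under vehicle against 13.0, 2.15 and 24.7 TPM under lycorine. The groups overlapped, and vehicle 3 and lycorine 3 were the highest of their groups.

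By class, the median log2 difference was -0.09 for snRNAs, -0.92 for box C/D, -1.09 for box H/ACA, -0.69 for other snoRNAs and 0.19 for scaRNAs, beside 0.22 for all rows tested. These medians include the 25 members with a group at 0, whose fitted differences depend on the pseudocount. Over the 28 members with values in both groups they were -0.09, -0.82, -0.41, 0.37 and 0.19. Single libraries moved them. Without vehicle 3 the medians of box C/D, box H/ACA and other snoRNAs were 0 and that of snRNAs was 0.79. The scaRNA median was -0.46 without lycorine 3, and -0.04 under quantile normalization. Over the same 28 members the median was -0.14, and 16 of these had a tested host.

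**Figure D5:**
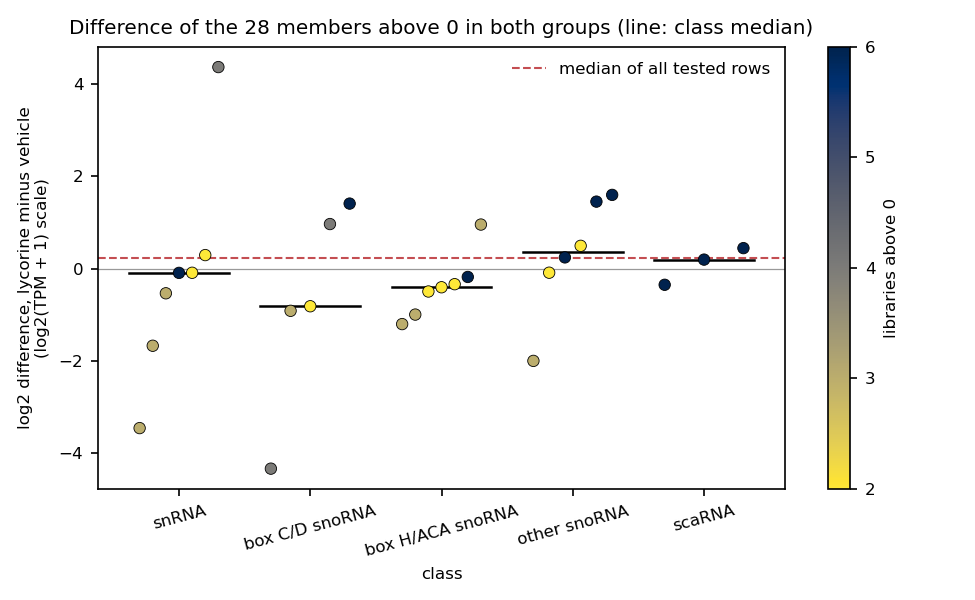
Points give the log2 difference, lycorine minus vehicle, on the log2(TPM + 1) scale (vertical axis) of the 28 members above 0 in both groups, by class (horizontal axis), coloured by the number of libraries above 0, with a line at each class median. Rnu11 is the highest point and Snord22 the lowest, and the dashed line marks the median of all tested rows, 0.22.

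Host genes were read beside their snoRNAs. A host on the same strand was found for 37 members, which lay in an intron in 19 cases and touched an exon in 18. These were 34 different genes, 8 of them ribosomal protein genes that held 10 members. Of 31 hosts tested, 30 were above 0 in all 6 libraries, while 9 of the 53 members were. No host passed the limma test, 1 had an unadjusted p under 0.05, 28 (90.3%) had a log2 difference above 0 and 3 below, and the median was 0.33, beside 69.9% of all rows above 0. The 4 hosts whose groups did not overlap, Rpsa, Rpl32, Larp1b and Ptcd3 (12.9% of those tested), were higher in lycorine, a share near the 9.6% of all rows. Over the 16 members with a tested host and values in both groups, member and host had differences of the same sign in 4, and Pearson's r was 0.15, a description over points that share their libraries.

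The proteins of the particles were nearly all measured, and none passed the limma test in any list (adjusted p of 0.832 or above, 0% of all rows called). Among them only Sf3b6 and Snrnp25 had an unadjusted limma p under 0.05, 1 of 41 and 1 of 13 tested on their lists, beside 3.44% of all rows. Of 41 tested proteins of the spliceosomal particles 37 had a log2 difference above 0, as had 69.9% of all rows. Their median was 0.34 beside 0.22 for all rows. Sf3b6, the branch-point contact of the U2 particle, was at 13.1, 10.9 and 4.94 TPM under vehicle against 24.9, 19.7 and 14.3 TPM under lycorine. Its groups did not overlap, as in 4 of these 41 proteins, all higher in lycorine, beside 9.6% of all rows. The list of minor spliceosome proteins also held Lsm10, which is a protein of the U7 particle. Of its 13 tested genes 10 were above 0, with a median of 0.17. Snrnp25, a protein of the U11 and U12 particle, was at 4.71, 4.89 and 5.37 TPM under vehicle against 8.61, 10.4 and 7.03 TPM under lycorine, and did not overlap (log2 difference 0.68 ± 0.27, SE; adjusted p = 0.832). It was the 1 gene of these 13 whose groups did not overlap.

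Factors that transcribe and process snRNAs had a median log2 difference of 0.26 over 46 genes, 37 of them above 0. Box C/D proteins had 0.20 over 12 genes, and box H/ACA proteins 0.25 over 10. Long RNAs that host snoRNAs, such as Gas5 and the Snhg genes, had 0.07 over 16 genes, of which 9 were above 0. Replication-dependent histones, whose mRNAs mostly end without a poly(A) tail, had 0.14 over 10 tested genes. Of these, Hist1h4n had an unadjusted limma p under 0.05 (3.44% of all rows did) and was lower in lycorine (-1.04). Hist1h2bc was higher (0.75) and was the 1 gene of the list whose groups did not overlap, beside 9.6% of all rows. All of these medians lay within 0.2 of that of all rows, in the direction that most rows of the table took.

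A pair of other short structured RNAs were also uneven. Rpph1, the RNA of ribonuclease P, was at 17.98, 16.4 and 123 TPM under vehicle against 11.5, 26.3 and 49.3 TPM under lycorine. Rmrp, the RNA of ribonuclease MRP, was at 8.42, 0 and 51.5 TPM under vehicle against 1.34, 0 and 6.86 TPM under lycorine. Both were highest within their group in library 3, and both overlapped between groups. Rny1 and Rny3 were listed at 0 throughout. Nuclear long RNAs differed among themselves. Mirg, highest within each group in library 3, was at 0.69, 0.21 and 4.0 TPM under vehicle against 0.21, 0.67 and 25.8 TPM under lycorine. Tug1, lowest within each group in library 3, was at 5.52, 2.83 and 2.41 TPM under vehicle against 4.94, 5.23 and 3.54 TPM under lycorine.

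Near copies limit which gene a value belongs to. Of the 53 members, 20 have a transcript in M21 with at least 95% identity over at least 90% of their length: 7 snRNAs, 7 box H/ACA, 4 other and 2 box C/D snoRNAs, and no scaRNA. Pairs of equal length with values in the same library were sought among the 64 annotated rows above 0. Of 15 such pairs 4 were listed at the same value to 2 decimals. Near copies of each other made up 3 of those 4 pairs: Gm26244 with Gm24924, Rnu12 with Gm24525, and Gm22743 with Gm22579. The fourth, Snora5c with Gm26493 at 23.2 TPM in vehicle 3, is not. Rnu11, Snord22 and Gm23547 have no near copy, but each overlaps an exon of another gene. Of the 29 members free of such overlap, 0 had groups that did not overlap, beside 10.6% of all rows tested. Members with a 0 in each group could not be apart, so these shares are not compared. What exon overlap does to these values was not tested.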

How the data were processed

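RNA sequencing of mouse liver gave 6 libraries, 3 vehicle and 3 lycorine, from 1.3 µg of total RNA each, per the labels' protocols. The authors deposited 1 table per gene and library, named for FPKM. Its columns each sum to 1000000 within rounding, so the deposited values were read as TPM, and the test planned for FPKM was run on them. Aligner, quantifier, annotation, strand setting and the choice between poly(A) selection and ribosomal RNA removal are not stated in the labels or the table. The submitters' processing notes name the builds GRCm38 and mm10. Lycorine columns are named for the drug, and the columns named for genotype alone were assigned to vehicle by elimination. Depth is unknown, so no counting interval is given.

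Gene types, lengths, coordinates, hosts and sequences came from GENCODE M21, which holds 52135 of the 55416 Ensembl identifiers. Symbols beginning with Snord or Rnu3 were taken as box C/D and those beginning with Snora as box H/ACA. Rows whose mean reached 1 TPM were tested with limma 3.58.1 in R 4.3.3 on log2(TPM + 1), two-sided, with a variance trend and Benjamini-Hochberg adjustment over 13854 rows at a threshold of 0.05. A fold change on this scale understates the change of low genes. Near copies were found with blastn 2.17.0. The procedure was tested on simulated data. The members and lists were chosen with earlier results of these data known. Named members were those called Rnu or Scarna, the 4 highest of each class, the 8 with the smallest p on each side and the 3 on either side of the threshold. Gm22043, Gm25501 and Snora43 were named after their values were seen, because they were above 0 in all 6 libraries, as were the hosts and the other members described. Alternatives covered the pseudocount, filter, scaling, variance model, library weights, a replicate block, exon overlap and leaving out libraries.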

Additional observations from a re-analysis of the deposited data

How the results depend on the processing

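Leaving out a library or changing the filter moved several values, and in each case the cause was not tested. Rows past the adjusted p numbered 1 when the pseudocount was 0.1, 1 under array quality weights and 0 to 2 when 1 library was left out (2 without vehicle 2 and 1 without lycorine 2). Members past it numbered 0 to 1, the 1 being Snord22 without lycorine 2. Members whose groups did not overlap numbered 0 among the 29 free of exon overlap, and 12 of 53 without vehicle 3 and lycorine 3. They numbered 3 to 7 with 1 library left out (7 without vehicle 1, 6 without vehicle 3 and 7 without lycorine 3). Over all 13854 rows tested such rows also became more numerous. They rose from 1470 to 4008 without vehicle 3 and lycorine 3, 4583 without vehicle 1, 2386 without vehicle 3 and 2899 without lycorine 3. With libraries left out, an alternative added after seeing the data, the rule gave 35 to 54 members and 40 to 63 annotated rows were above 0. The lowest of both came without vehicle 3 and lycorine 3.

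A filter of at least 1 TPM in every library of a group left 1 snRNA (Rnu11, 4.37), 3 box C/D (median 0.97), 1 box H/ACA (Snora43, -0.18) and 2 other snoRNAs (median 0.92). It keeps a member through the group where it is high, so these values describe the filter and no class. With 1 library left out the snRNA median was -0.97 to 0.80, that of box C/D -1.95 to 0.00 and that of scaRNAs -0.46 to 0.51. The box C/D median was -2.05 with a minimum mean of 5. That of box H/ACA was -2.15 with a pseudocount of 0.1 and 0 without vehicle 3 and lycorine 3, and -1.63 to 0.00 with 1 library left out. That of other snoRNAs was -1.86 with the minimum mean of 5, -1.23 with the pseudocount, -0.18 with array quality weights, -1.29 without exon overlap, 0 without vehicle 3 and lycorine 3, and -1.17 to 0.018 with 1 library left out.

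Of 45 single genes followed over up to 17 settings, 37 never changed direction. The direction changed with array quality weights for Gm22043 (0.029), Gm23119 (-0.19), Gm23442 (0.73) and Snora33 (2.48). It changed for Gm23119 under quantile normalization (-0.038) and scaling to protein-coding nuclear genes (-0.025), and for Snora33 without vehicle 3 and lycorine 3 (0.49), against -2.87 without lycorine 2. With libraries left out, the log2 differences of the other genes that changed direction ranged as follows: Gm22043 (-0.80 to 0.55), Gm23119 (-1.23 to 1.30), Gm26244 (-5.36 to 0.98), Snora20 (-1.81 to 1.47), Snora43 (-0.57 to 0.31) and Snora57 (-1.90 to 1.41).

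Same-numbered libraries of the groups had correlated deviations of 0.31, 0.05 and 0.29, and the other combinations -0.34 to 0.21. Numbers 1 and 3 correlated most with their own number, whereas vehicle 2 correlated more with lycorine 1 (0.21). The titles give only numbers, so the main test took no pairs. Whether the numbers mark matched libraries cannot be told from these values. With the replicate block 0 rows and 0 members passed, while 1033 rows had an unadjusted limma p under 0.05, against 476 without it. Depth is unknown from TPM, so a value listed at 0 sets no upper limit on the level of a small RNA.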
